A study of Homo sapiens with 4 samples.

Results

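The MyLa cell line was compared with the HH cell line, both cultured without IL-32γ. MyLa is labelled a mycosis fungoides line. Mycosis fungoides is the most common cutaneous T cell lymphoma, a group of cancers of T cells that home to the skin, and the label of HH gives the wider class, cutaneous T cell lymphoma. The members are 2 of the study's 4 expression arrays, the MyLa control array and the HH control array. Each hybridised RNA of 1 culture kept for 40 h in 0.1% serum. The other 2 arrays carried RNA of the same lines kept the same way for 40 h with IL-32γ, a splice form of the cytokine interleukin-32, at 5 ng/ml. Every group was 1 array of 1 line, so no difference here has a replicate check, no p-value is given, and a difference between the lines cannot be told apart from a difference between 2 cultures. The IL-32γ arrays served only to see whether a difference between the lines repeated.

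T cells recognise antigen with a receptor made of variable chains and the invariant CD3 chains. The coreceptors CD4 and CD8 bind MHC class II and class I molecules, and receptors such as CD28 and ICOS add a second signal. Lymphoma lines keep parts of this equipment and lose others, and cutaneous T cell lymphomas are known for changed surface antigens, active STAT signalling and lost cell cycle inhibitors.

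Values are log2 signals per probe set, and a gene was read by its brightest probe set over the 4 arrays. Signals below 5 were set to 5 and counted as not measured. A difference is MyLa minus HH in log2, and where only 1 of the control arrays measured a gene, its fold is a lower bound ("at least"). Of 19775 genes with a probe set, 9456 were measured on both control arrays, 920 in MyLa only and 798 in HH only. These last groups were 8.23% and 7.14% of the 11174 measured genes. The signal was higher in MyLa by 2-fold or more for 2138 genes, which is 19.1% of the measured genes, and higher in HH by as much for 2074 genes, 18.6%, together 4212 genes or 37.7%. By 4-fold or more it was higher in MyLa for 1082 genes (9.68%) and in HH for 982 genes (8.79%). The median difference over all measured genes was 0.00. These shares are the background for every list below.

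**Figure D1:**
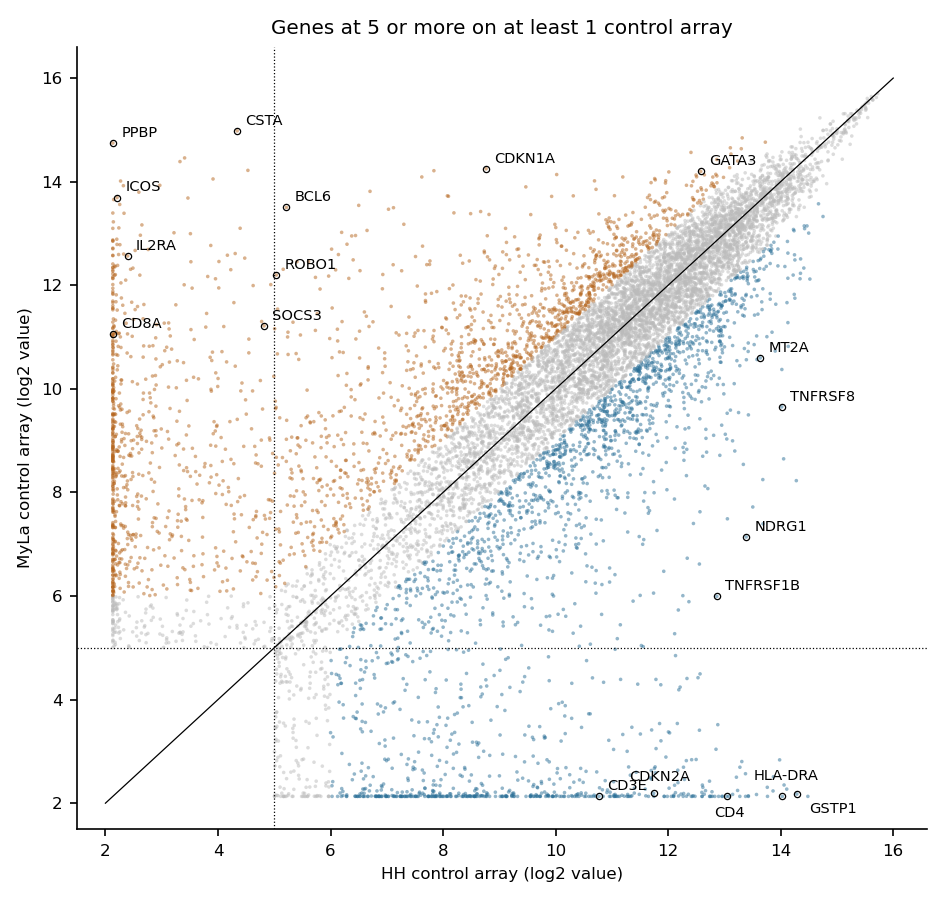
Each point is a gene measured on at least 1 control array, with its log2 value on the HH control array on the x axis and on the MyLa control array on the y axis. Orange points were higher in MyLa and blue points higher in HH by 2-fold or more, and the dotted lines mark the floor of 5. ICOS, CD8A and PPBP sit near the bottom of the HH scale and CD4, HLA-DRA and GSTP1 near the bottom of the MyLa scale.

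Most differences were seen again on the IL-32γ arrays. Of the 2138 genes higher in MyLa, 1887 (88.3%) were higher in MyLa by 2-fold or more there too, and of the 2074 genes higher in HH, 1645 (79.3%) were higher in HH by as much. Over all genes of the IL-32γ arrays, 20.3% were higher in MyLa and 17% in HH. None of the genes higher in MyLa turned round by 2-fold, and 3 of those higher in HH did. Within a line the arrays lay much closer: the IL-32γ array differed from the control array by 2-fold or more for 4.22% of measured genes in MyLa and 0.912% in HH. For most genes with a second probe set that was measured on a control array, that probe set told the same. It was past 2-fold the same way for 696 of 930 genes higher in MyLa and for 682 of 876 genes higher in HH. It was 2-fold the opposite way for 8 and 12 genes. Genes whose other probe sets were not measured on either control array are left out of these counts.

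The control arrays had a like number of probe sets at 5 or more, 23686 in MyLa and 23433 in HH. The probe set at the 5′ end of the ACTB transcript read 10.12 in MyLa and 12.69 in HH, whereas the one at the 3′ end read 15.14 and 15.27. On the IL-32γ arrays the 5′ values were 11.81 and 13.58. The GAPDH 5′ probe set differed by −0.67 on the control arrays and −0.13 on the IL-32γ arrays, where its 3′ probe set differed by −0.12. The 5′ signal of ACTB was thus lower in MyLa on both pairs and that of GAPDH on the control pair, and the part of this in the differences below was not tested.

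**Figure D2:**
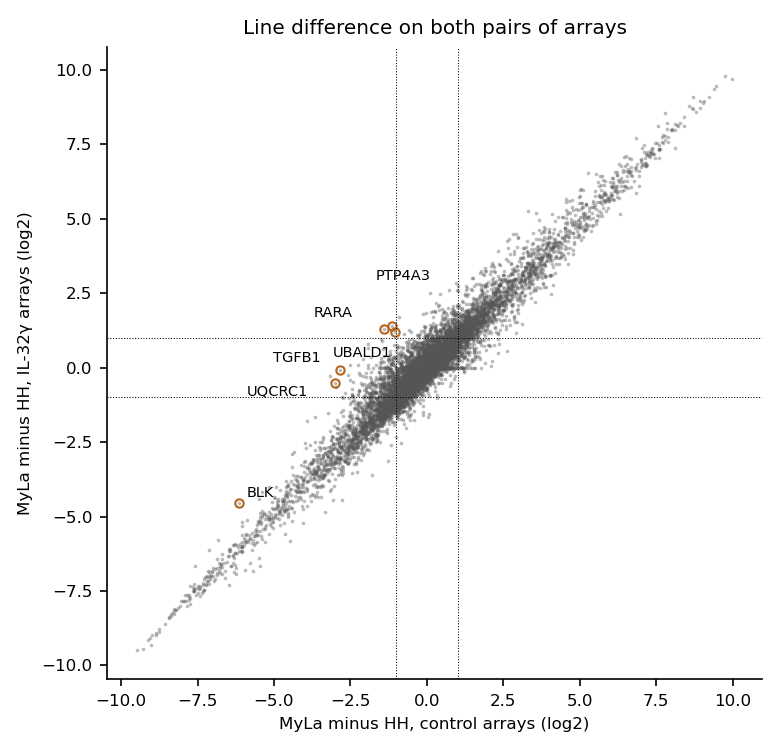
Each point is a gene measured on a control array, with MyLa minus HH (log2) on the control arrays on the x axis and on the IL-32γ arrays on the y axis. Dotted lines mark 2-fold. The points lie along the diagonal, and PTP4A3, RARA and UBALD1 are the genes past 2-fold one way on one pair and the other way on the other.

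Both lines carried T cell transcripts, and HH carried more of the markers. Of 10 T cell markers with a probe set, 7 were measured in MyLa and 9 in HH. The markers measured in MyLa were all measured in HH too. CD3D, CD3G, CD247, LAT, ZAP70 and the T cell factor BCL11B were within 2-fold on the control arrays by their brightest probe sets. On the IL-32γ arrays CD3G and BCL11B were past 2-fold higher in HH, at −1.23 and −1.11. The other probe set of BCL11B gave −2.11 on the control arrays. LCK, the kinase that starts receptor signalling, read 2.13 on both control arrays. CD3E, the CD3 epsilon chain, read 2.13 on the MyLa control array and 10.77 on the HH control array, and was at least 54.6-fold higher in HH. CD5, a scavenger-type receptor that restrains T cell signalling, read 2.13 and 12.09, at least 137-fold higher in HH. Its relative CD6, which binds the adhesion molecule ALCAM, read 2.21 and 12.60, at least 194-fold higher in HH. The other probe sets of CD6 gave −4.39 to −0.72. For these 3 genes MyLa was at the bottom of the scale and HH was high.

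The coreceptors stood opposite to each other. CD4 read 2.13 in MyLa and 13.04 in HH, with 2.27 and 12.84 on the IL-32γ arrays, so it was at least 263-fold higher in HH. CD8A read 11.05 in MyLa and 2.13 in HH, with 11.08 and 2.13 on the IL-32γ arrays, at least 66.3-fold higher in MyLa. CD8B, the second CD8 chain, read 2.13 on all 4 arrays, as did CD7, another T cell surface antigen. CD4 and CD8A were thus each measured in the line where the other was below 5. ZBTB7B, the factor that directs thymocytes to the CD4 lineage, read 4.86 in MyLa and 7.10 in HH. RUNX3, which directs them to the CD8 lineage, was within 2-fold at 12.31 and 12.07. Of the 11 measured genes of the receptor complex and its coreceptors, 1 was higher in MyLa and 7 in HH, with a median difference of −2.42. The 7 also held TRBC1, a beta chain constant region, CD2, an adhesion receptor, and PTPRC, the phosphatase CD45, which were 5.34-fold, 3.50-fold and 9.02-fold higher in HH. In such bulk RNA, fewer cells that carry a transcript and less transcript per cell cannot be told apart.

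Behind the receptor, 8 of 21 measured signalling genes were higher in MyLa and 5 in HH, with a median of −0.23. PAG1, an adaptor that restrains SRC family kinases, read 13.37 in MyLa and 8.82 in HH, 23.4-fold higher. PRKCQ, the kinase that links the receptor to NF-kB, read 9.50 in MyLa and 2.13 in HH, at least 22.7-fold higher. LCP2, the scaffold SLP-76, was 11.6-fold higher in MyLa. BLK, a SRC family kinase of B cells, read 4.39 in MyLa and 11.16 in HH, at least 71.3-fold higher in HH, and VAV1, an exchange factor, was 6.36-fold higher in HH. The median of this list was 0.46 on the IL-32γ arrays, so the list as a whole had no settled direction.

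Costimulatory and checkpoint receptors split in equal numbers, 6 of 14 measured members higher in each line, and held some of the widest gaps of the data. ICOS, an activating receptor of the CD28 family, read 13.69 in MyLa and 2.21 in HH, with 13.68 and 2.13 on the IL-32γ arrays, at least 414-fold higher in MyLa. MyLa also held transcripts of ligands that antigen-presenting cells use to stimulate T cells. CD86 read 13.00 and 3.51, at least 255-fold higher in MyLa, and CD80 read 13.47 and 7.03, 86.6-fold higher. CD274, the checkpoint ligand PD-L1, read 11.16 and 2.13, and CTLA4, the inhibitory receptor for CD80 and CD86, read 10.51 and 3.39. These were at least 71.7-fold and 45.4-fold higher in MyLa, while the other probe set of each gave 1.51 and 1.28. On the HH side stood LAG3, an inhibitory receptor that binds MHC class II, at 2.16 in MyLa and 11.04 in HH, at least 65.6-fold higher in HH. CD226, an activating receptor for nectin-like ligands, was at least 41.2-fold higher in HH. ICOSLG, the ligand of ICOS, read 4.95 and 8.45, so each line was high in one partner of the ICOS pair.

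Within the TNF superfamily, 9 of 20 measured members were higher in MyLa and 6 in HH, with a median of 0.76. TNFSF4, the ligand OX40L, read 12.17 in MyLa and 3.82 in HH, at least 144-fold higher in MyLa. TNF and TNFRSF1A, its broadly used receptor, were at least 16.1-fold and 17.7-fold higher in MyLa. The second TNF receptor, TNFRSF1B, went the other way: it read 5.99 in MyLa and 12.86 in HH, with 6.47 and 12.91 on the IL-32γ arrays, 117-fold higher in HH. TNFRSF8, the lymphoma antigen CD30, read 9.65 in MyLa and 14.02 in HH, 20.6-fold higher in HH but measured in both. FAS, the death receptor, was 7.45-fold higher in MyLa. The receptors for TNF therefore differed in kind between the lines.

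Genes described as markers of cutaneous T cell lymphoma also divided, 6 of 13 measured members higher in MyLa and 4 in HH, with a median of 0.74. GTSF1, a germ cell factor of the piRNA pathway that skin lymphomas can express, read 13.01 in MyLa and 3.22 in HH, at least 258-fold higher. DPP4, the peptidase CD26, read 11.59 and 2.57, at least 96.3-fold higher in MyLa. TWIST1, a mesenchymal transcription factor, was measured in both and was 14.2-fold higher in MyLa. TOX, a thymic factor often raised in mycosis fungoides, was high in both at 11.78 and 13.48, and was 3.26-fold higher in HH. NEDD4L, a ubiquitin ligase, read 2.17 in MyLa and 12.36 in HH, at least 164-fold higher in HH.

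**Figure D3:**
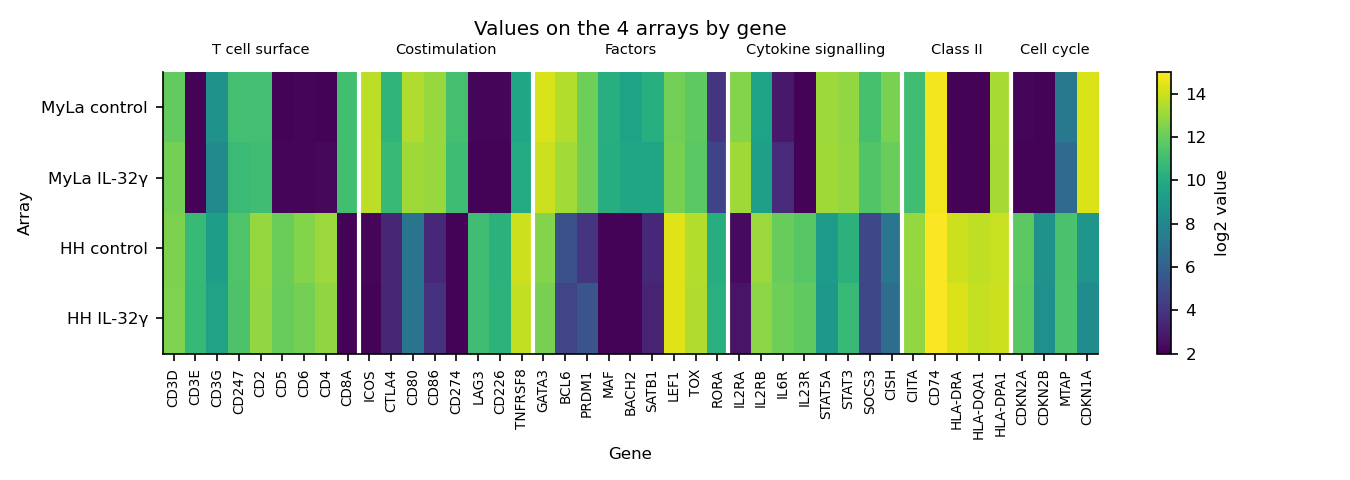
Colour shows the log2 value of genes named in the text (columns, in 6 groups) on the 4 arrays (rows), on 1 scale from 2 to 15. The 2 arrays of a line look alike in every column, and CD4, CD8A, ICOS, IL2RA and HLA-DRA change from dark to bright between the lines.

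Among transcription factors of T cell identity, 10 of 31 measured members were higher in MyLa and 9 in HH, and the median was −0.10. BCL6, the repressor of follicular helper T cells and germinal centre B cells, read 13.50 in MyLa and 5.22 in HH, with 13.22 and 4.72 on the IL-32γ arrays. This was 312-fold higher in MyLa, the largest difference among genes measured on both control arrays. Its other probe sets gave smaller differences, 1.48 and 4.67, in the same direction. PRDM1, or BLIMP1, which represses BCL6 in normal lymphocytes, was also high in MyLa, at 12.12 against 3.96, at least 140-fold higher. MAF and SATB1 were at least 35.4-fold and 35.9-fold higher in MyLa, and BACH2, a repressor that keeps lymphocytes resting, read 9.52 there and 2.13 in HH. GATA3, the master factor of type 2 helper T cells, was high in both at 14.20 and 12.58, 3.07-fold higher in MyLa. HH had more of RORA, LEF1 and IRF4. LEF1, the T cell partner of beta-catenin, read 12.23 and 14.35, and IRF4, a factor of activated lymphocytes, 11.42 and 13.32. RORA read 3.95 and 10.12, but 1 of its other probe sets gave 0.52 the other way.

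Cytokine transcripts were found more often in MyLa: 11 of 19 measured genes were higher there and 2 in HH, with a median of 2.92. IL15, a growth factor of T and NK cells, read 11.62 in MyLa and 3.25 in HH, at least 98.5-fold higher. LIF and OSM, cytokines that signal through gp130 to STAT3, read 10.83 and 10.69 in MyLa against 2.84 and 4.55 in HH. The type 2 cytokines IL13 and IL5 were at least 32.4-fold and 8.88-fold higher in MyLa, IL13 reading 10.02 and 3.26 and IL5 8.15 and 2.38. IL1A was at least 129-fold higher in MyLa by its brightest probe set, while its other probe set gave −0.64, so its direction is uncertain. Higher in HH were TGFB1 and TGFB2, suppressive cytokines. TGFB1 read 5.94 and 8.78 on the control arrays but 8.40 and 8.49 on the IL-32γ arrays, so its 7.18-fold difference did not repeat. Among chemokines, CXCL8, CXCL10 and CXCL11 were higher in MyLa, CXCL11 at 9.61 against 4.79, and CCL5 and CCL22 were higher in HH, CCL5 by 2.49-fold and CCL22, measured in HH only, by at least 2.90-fold. The CCL5 difference was near 0 on the IL-32γ arrays.

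Cytokine receptor transcripts differed in kind. Of 29 measured receptor genes, 10 were higher in MyLa and 7 in HH, with a median of 0.22. IL2RA, the alpha chain that gives the IL-2 receptor high affinity, read 12.56 in MyLa and 2.39 in HH, with 13.12 and 2.70 on the IL-32γ arrays, at least 189-fold higher in MyLa. IL2RB, the beta chain that transmits the IL-2 and IL-15 signal, read 9.53 and 13.05, 11.5-fold higher in HH. IL6R and IL23R read 2.89 and 2.14 in MyLa against 11.96 and 11.60 in HH. They were at least 125-fold and 97.2-fold higher in HH. IL10RA was 14.1-fold and CSF2RB, the shared chain for IL-3, IL-5 and GM-CSF, 13.5-fold higher in MyLa.

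Downstream, genes of JAK and STAT signalling and its feedback were more often higher in MyLa, 10 of 19 measured against 3 in HH, with a median of 1.75. STAT5A read 13.10 and 9.11, 15.9-fold higher in MyLa, and STAT3 read 12.92 and 10.34, 5.96-fold higher. SOCS3 and CISH encode inhibitors that STATs switch on. SOCS3 read 11.22 in MyLa and 4.82 in HH, at least 74.3-fold higher (its other probe set gave 1.97), and CISH read 12.40 and 7.11, 38.9-fold higher. On the IL-32γ arrays the counts were again 10 and 3. JAK2, PIM2 and PTPN1 were the members higher in HH, by 2.08-fold to 3.43-fold.

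Interferon-stimulated genes leaned the same way, 13 of 23 measured higher in MyLa and 3 in HH, with a median of 1.12. RSAD2, the antiviral enzyme viperin, read 11.61 in MyLa and 2.31 in HH, at least 97.9-fold higher. MX2, a GTPase that traps viral capsids, was 27.2-fold and IFIT3 12.7-fold higher in MyLa, and IFITM1 7.08-fold. IFI44L went the other way, at 2.13 and 7.12. These genes were not all higher in 1 line, since 7 were within 2-fold.

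**Figure D4:**
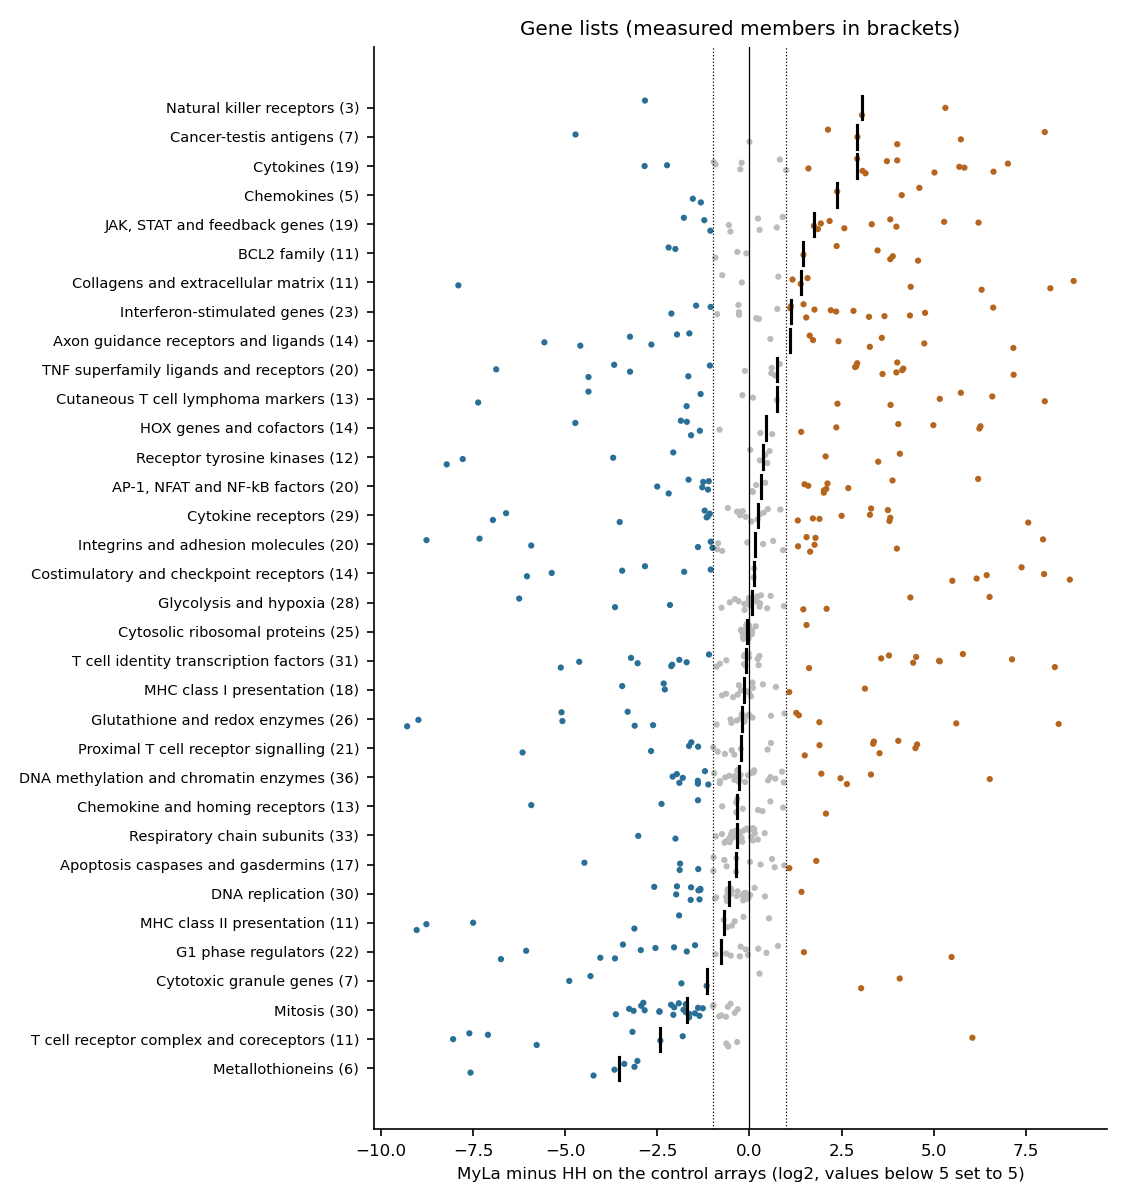
Each point is a measured gene of the list named on the y axis, placed on the x axis by MyLa minus HH on the control arrays (log2, values below 5 set to 5). Black bars are list medians, dotted lines mark 2-fold, and orange and blue mark genes past it. The metallothioneins and most mitosis genes lie on the HH side, cytokines and JAK and STAT genes mostly on the MyLa side, and the ribosomal proteins close to 0.

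In MHC class II presentation the lines differed mainly in the DR and DQ genes. HLA-DRA, the invariant alpha chain of HLA-DR, read 2.13 in MyLa and 14.03 in HH, with 2.13 and 14.31 on the IL-32γ arrays, at least 522-fold higher in HH. HLA-DQA1 read 2.13 and 13.77, at least 435-fold higher, and HLA-DQB1 read 2.84 and 12.50, at least 181-fold higher. In contrast CD74, the invariant chain, read 14.76 and 14.92, and HLA-DPA1, HLA-DPB1, HLA-DMA, HLA-DMB and HLA-DOA were within 2-fold by their brightest probe sets. CIITA, the coactivator that class II promoters need, read 11.02 in MyLa and 12.93 in HH, so it was measured in both but higher in HH by more than 2-fold. None of the 11 measured members was higher in MyLa and 5 were higher in HH, with a median of −0.70. The other probe sets of HLA-DPA1 gave 1.47 and 3.37, and that of HLA-DPB1 gave −3.93. The DRB genes are near-identical to one another, so the 8.70-fold difference of HLA-DRB1 is uncertain.

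The promoter of HLA-DQA1 is shown because the gene went from the floor in 1 line to a high signal in the other. CIITA, though higher in HH, was measured in both. The 250 bases before its start lie at chr6:32637156-32637405 on the plus strand of GRCh38.p14, from RefSeq. Capitals mark CCAAT on either strand, the box that the factor NF-Y binds in class II promoters. The window holds 2 matches, and 33% of 27305 promoters of the same length hold at least 1. The share with 2 or more is not given, and a match is not a measured binding site.
HLA-DQA1: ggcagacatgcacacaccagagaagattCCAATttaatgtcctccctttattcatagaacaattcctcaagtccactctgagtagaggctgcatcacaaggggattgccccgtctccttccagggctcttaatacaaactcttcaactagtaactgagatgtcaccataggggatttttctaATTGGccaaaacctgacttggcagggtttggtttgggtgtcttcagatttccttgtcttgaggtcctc

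MHC class I genes differed less: 13 of 18 measured members were within 2-fold, 2 were higher in MyLa and 3 in HH. B2M, the shared light chain, read 14.91 on both control arrays. NLRC5, the class I coactivator, read 9.22 in MyLa and 12.67 in HH, 10.9-fold higher in HH, and ERAP2, a peptidase that trims peptides, was 8.78-fold higher in MyLa.

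Cell cycle genes were lower in MyLa at several steps. Of 22 measured G1 regulators, 2 were higher in MyLa and 10 in HH, with a median of −0.77. CDKN2A, the inhibitor gene for p16 and ARF, read 2.19 in MyLa and 11.74 in HH, with 2.13 and 11.60 on the IL-32γ arrays, at least 107-fold higher in HH. Its neighbour CDKN2B, the inhibitor p15, read 2.13 and 8.65, at least 12.5-fold higher in HH. MTAP, a salvage enzyme gene beside them on chromosome 9, read 7.24 and 11.28, 16.5-fold higher in HH. The measured genes next to these in gene order, chosen after their values were seen, lay on the same side: KLHL9 differed by −1.42, HACD4 by −6.65, FOCAD by −2.48 and MLLT3 by −2.33. Beyond this stretch ACER2 on one side was 2.86 and CAAP1 on the other 0.42, both above 0. The genes past CAAP1 went both ways: PLAA was −0.16, IFT74 0.56, MOB3B, measured in HH only, −2.93 and C9orf72 −0.58. The stretch from MLLT3 to CDKN2B was therefore lower in MyLa in every measured gene. MLLT3, FOCAD, KLHL9 and MTAP were still measured in MyLa, MLLT3 at 9.93, FOCAD at 9.06 and MTAP at 7.24. HACD4, CDKN2A and CDKN2B were measured in HH only.

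CDKN1A, the inhibitor p21, stood opposite to these inhibitors. It read 14.25 in MyLa and 8.77 in HH, with 14.27 and 8.33 on the IL-32γ arrays, 44.8-fold higher in MyLa. Several genes that drive entry into S phase were higher in HH. CCNE2, a cyclin partner of CDK2, read 4.97 and 11.06, at least 66.6-fold higher, though its other probe set gave −2.41. CDK2 itself read 6.73 and 9.68, 7.72-fold higher. E2F1 and E2F2, the factors released by the retinoblastoma protein, were 5.86-fold and 4.13-fold higher in HH. MYC read 9.83 and 11.31. The D cyclin CCND3 went the other way, at 9.93 and 8.45, 2.79-fold higher in MyLa.

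Mitosis genes followed. Of 30 measured genes, 21 were higher in HH by 2-fold or more and none in MyLa, with a median of −1.68, against 18.6% of all genes higher in HH. PLK1, the polo-like kinase of spindle assembly, read 5.95 in MyLa and 9.57 in HH, 12.3-fold higher in HH. KIF20A, a motor of cytokinesis, was 9.60-fold, CENPA, the centromere histone, 8.83-fold, and UBE2C, which marks cyclins for destruction, 7.66-fold higher in HH. On the IL-32γ arrays 22 of the genes were higher in HH, with a median of −1.88. DNA replication genes differed less: 9 of 30 were higher in HH and 1 in MyLa, and the median was −0.55. Ribosomal proteins were near 0, with a median of −0.06 and 24 of 25 within 2-fold, and respiratory chain subunits had a median of −0.35 with 31 of 33 within 2-fold. The difference in mitosis genes was thus not seen over these housekeeping lists.

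In the BCL2 family, which controls mitochondrial cell death, 6 of 11 measured members were higher in MyLa and 2 in HH, with a median of 1.47. The protective members BCL2 and BCL2L1 read 10.60 and 11.04 in MyLa against 6.03 and 7.22 in HH, 23.8-fold and 14.1-fold higher. Their other probe sets gave less, 0.63 for BCL2 and 0.90 to 3.66 for BCL2L1. The death-promoting members BID and PMAIP1 were also higher in MyLa, 11.1-fold and 5.15-fold. The other probe sets of BID gave 0.49 and 3.34. Caspases and gasdermins, which carry out cell death, had 2 of 17 measured members higher in MyLa and 4 in HH. GSDME, a pore-forming gasdermin cut by caspase-3, read 7.09 and 11.57, 22.3-fold higher in HH. Among activation factors, 9 of 20 were higher in MyLa and 7 in HH. NR4A3, an early gene of receptor stimulation, read 12.30 and 6.09, 73.8-fold higher in MyLa, and NFKB1, which encodes the NF-kB subunit p50, was 5.67-fold higher in HH.

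GSTP1, a glutathione transferase that detoxifies electrophiles, had the second largest bound of all genes on the HH side. It read 2.18 in MyLa and 14.29 in HH, with 2.18 and 14.43 on the IL-32γ arrays, at least 624-fold higher in HH. A related enzyme, GSTO1, was the reverse, at 13.39 in MyLa and 2.33 in HH, at least 335-fold higher in MyLa. PRDX2, a peroxidase of hydrogen peroxide, was at least 505-fold higher in HH, but its other probe sets gave only −3.03 to −0.46. GPX7 and AKR1C1 were at least 33.7-fold and 34.2-fold higher in HH, though the other measured probe set of AKR1C1 gave −2.22. The list as a whole had no lean, with 5 of 26 measured members higher in MyLa, 7 in HH and a median of −0.20.

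Metallothioneins, small proteins that bind zinc and copper, were all on the HH side: 6 of 6 measured members were higher in HH, with a median of −3.53, and 2 more were below 5 on both arrays. MT2A read 10.60 in MyLa and 13.64 in HH, 8.23-fold higher in HH. MT1F read 4.50 and 12.57, at least 190-fold higher, and MT1E, MT1G, MT1X and MT1H were 8.68-fold to 18.8-fold higher. On the IL-32γ arrays all 6 were again higher in HH, with a median of −2.84. The genes lie side by side on chromosome 16 and are near-identical in sequence, so probe sets can read several of them and the members are not independent.

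Promoters are shown for GSTP1 and ICOS, each measured in 1 line only and each with a different base makeup, and for 3 metallothionein genes, which were high together. All are the 250 bases before the start on the plus strand of GRCh38.p14, from RefSeq. In GSTP1, at chr11:67583562-67583811, and in ICOS, at chr2:203936513-203936762, capitals mark CpG, the dinucleotide that carries DNA methylation. GSTP1 holds 28 and ICOS 2.
GSTP1: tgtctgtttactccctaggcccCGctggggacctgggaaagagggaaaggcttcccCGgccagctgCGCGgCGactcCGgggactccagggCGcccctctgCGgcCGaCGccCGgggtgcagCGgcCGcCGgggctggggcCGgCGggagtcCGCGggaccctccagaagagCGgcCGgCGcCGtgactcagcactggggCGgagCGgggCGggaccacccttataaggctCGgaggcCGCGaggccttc
ICOS: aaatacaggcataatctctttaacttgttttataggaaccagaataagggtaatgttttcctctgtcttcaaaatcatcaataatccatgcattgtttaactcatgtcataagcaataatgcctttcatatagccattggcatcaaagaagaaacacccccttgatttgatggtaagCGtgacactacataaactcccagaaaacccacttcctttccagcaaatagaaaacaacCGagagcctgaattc

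In the metallothionein promoters capitals mark TGCGCNC or TGCACNC on either strand, the core of the metal response element to which the zinc-sensing factor MTF1 binds. MT2A, at chr16:56608334-56608583, holds 7 such matches, MT1H, at chr16:56669564-56669813, holds 8, and MT1X, at chr16:56682220-56682469, holds 4. Of 27305 promoters 24.7% hold at least 1 match and 1.56% hold 3 or more. A match is a description of the letters and not a measured binding site.
MT2A: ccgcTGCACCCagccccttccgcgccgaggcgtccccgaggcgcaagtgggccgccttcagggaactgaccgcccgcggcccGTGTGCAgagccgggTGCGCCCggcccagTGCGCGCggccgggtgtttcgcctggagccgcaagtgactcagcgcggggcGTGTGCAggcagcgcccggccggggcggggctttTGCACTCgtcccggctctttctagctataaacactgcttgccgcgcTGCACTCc
MT1H: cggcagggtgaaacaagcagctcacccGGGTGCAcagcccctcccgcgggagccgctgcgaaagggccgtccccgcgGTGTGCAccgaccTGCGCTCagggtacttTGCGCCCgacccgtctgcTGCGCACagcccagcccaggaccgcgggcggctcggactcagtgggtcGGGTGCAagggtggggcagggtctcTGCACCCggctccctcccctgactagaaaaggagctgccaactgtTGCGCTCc
MT1X: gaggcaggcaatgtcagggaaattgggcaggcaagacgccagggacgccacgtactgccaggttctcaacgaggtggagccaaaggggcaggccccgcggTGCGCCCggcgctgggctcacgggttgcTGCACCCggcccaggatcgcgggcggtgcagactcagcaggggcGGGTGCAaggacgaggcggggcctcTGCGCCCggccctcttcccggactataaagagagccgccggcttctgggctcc

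The base makeup of promoters went with where a gene was measured. Genes measured on both control arrays within 2-fold had a median of 22 CpG in the 250 bases (5609 genes), and those measured on both and 2-fold or more apart had 21 (2268 genes). Genes measured in MyLa only had 15 (705 genes), genes measured in HH only 18 (586 genes), and genes measured on neither array 8 (6216 genes). The share with an observed over expected CpG ratio of 0.6 or more was 85.8% and 80% in the first groups, 55.7% in MyLa only, 63.8% in HH only and 40.4% in the last. Genes found in 1 line only thus lay between genes found in both and genes found in neither.

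Genes of adhesion and matrix included several of the largest differences. FN1, the matrix protein fibronectin, read 13.80 in MyLa and 2.59 in HH, at least 445-fold higher in MyLa. COL3A1 and COL1A1, fibrillar collagens, read 13.16 and 11.30 in MyLa against 2.65 and 4.78 in HH, at least 287-fold and 78.8-fold higher. COL6A3 was the exception, at 2.13 and 12.90, at least 238-fold higher in HH. Of 11 measured matrix genes 7 were higher in MyLa and 1 in HH. Of the 9 fibroblast markers 3 were measured in MyLa, COL3A1, COL1A1 and POSTN, and none in HH. The log2 of their summed level was 13.53 in MyLa and 6.01 in HH. The defining fibroblast genes DCN, LUM, PDGFRB, FAP, THY1 and COL1A2 were below 5 on both control arrays.

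By their brightest probe sets, the cadherins were exchanged between the lines. CDH1, the epithelial E-cadherin, read 12.97 in MyLa and 2.62 in HH, at least 250-fold higher in MyLa, and CDH2, the neural N-cadherin, read 2.82 and 12.32, at least 160-fold higher in HH. The other probe set of CDH2 gave −1.43, and that of CDH1 was below 5 on both control arrays. The epithelial markers EPCAM, KRT5, KRT14, KRT18 and KRT19 were below 5 in both lines. The keratins KRT10 and KRT8 were measured in both, within 2-fold of each other between the lines. CADM1, an adhesion molecule known from adult T cell leukaemia, read 2.31 and 13.76, at least 434-fold higher in HH. ITGB7, which pairs with alpha 4 in gut homing, read 5.18 and 11.10, 60.5-fold higher in HH. ROBO1, a receptor for SLIT guidance cues, read 12.20 in MyLa and 5.04 in HH, 143-fold higher in MyLa, and SLIT1, a ligand of this family, was at least 24.1-fold higher in HH.

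Receptor tyrosine kinases differed in identity. MET, the receptor for hepatocyte growth factor, read 2.22 in MyLa and 12.78 in HH, at least 220-fold higher in HH. FGFR1, a fibroblast growth factor receptor, read 2.50 and 13.21, at least 297-fold higher in HH, and its other probe sets gave −7.04 to −0.54. MyLa had instead NTRK2 at 9.08 and FGFR3 at 8.49, at least 16.9-fold and 11.3-fold higher than HH. Of 12 measured members 3 were higher in MyLa and 4 in HH.

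HOX genes and their cofactors had no clear lean as a list: 6 of 14 measured members were higher in MyLa and 5 in HH, with a median of 0.46. Of the 31 with a probe set, 17 were below 5 on both control arrays. HOXC4, HOXC5, HOXC6 and HOXC9, of the cluster on chromosome 12, were measured in MyLa only, at 11.24, 7.36, 11.27 and 9.99, and HOXD8 also in MyLa only at 9.04. MEIS1, a cofactor of HOX proteins, read 2.13 in MyLa and 9.72 in HH, at least 26.4-fold higher in HH. HOXB7 and HOXB8 were measured in both and went opposite ways past 2-fold, HOXB7 at 11.86 and 10.45 and HOXB8 at 9.12 and 10.46. HOXB2 was measured in HH only, at 6.58 against 2.13 in MyLa.

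Cancer-testis antigens are genes normally restricted to the germ line. Of 7 measured, 5 were higher in MyLa and 1 in HH, and 24 of the 31 with a probe set were below 5 on both arrays. Besides GTSF1, PRAME read 10.74 in MyLa and 3.05 in HH, at least 53.3-fold higher, and MAGEB1 was at least 16.1-fold higher. TEX14 was the member higher in HH, at least 26.3-fold.

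Of 15 natural killer receptor genes with a probe set, 3 were measured, 2 higher in MyLa and 1 in HH. KIR3DL1, an inhibitory receptor for HLA-B molecules, read 10.32 in MyLa and 2.13 in HH, at least 39.8-fold higher, and KIR2DL1 was at least 8.31-fold higher. Other KIR genes, which the list leaves out, were also measured in MyLa only. They were 7 neighbours on chromosome 19 from KIR2DL2 to KIR2DS1, and KIR3DL3, KIR2DL3 and KIR2DS4. CD244, a receptor of the SLAM family, read 2.43 and 7.83, at least 7.13-fold higher in HH. Natural killer cell markers such as NCAM1, KLRF1, KLRD1, GNLY and NKG7 were below 5 in both lines, 0 of 7 measured. Among cytotoxic granule genes 2 of 7 measured members were higher in MyLa and 4 in HH, with a median of −1.16. PRF1, the pore protein perforin, was measured in both and was 8.17-fold higher in MyLa, while SERPINB9, the granzyme B inhibitor, was at least 29.6-fold and CST7, a protease inhibitor of killer cells, at least 19.9-fold higher in HH. KIR genes are near-identical, so the probe sets may read one another's transcripts and single members are uncertain.

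Many of the largest bounds belonged to genes outside these lists. CSTA, a cysteine protease inhibitor of the skin barrier, read 14.98 in MyLa and 4.34 in HH, with 15.21 and 5.52 on the IL-32γ arrays, at least 1011-fold higher in MyLa. PPBP, the platelet chemokine CXCL7, read 14.75 and 2.13, at least 858-fold higher. MAOA, which breaks down monoamine neurotransmitters, read 14.01 and 2.27, and TXNIP, an inhibitor of thioredoxin, 13.65 and 2.15. These were at least 516-fold and 403-fold higher in MyLa. On the HH side TPRG1 read 2.13 and 14.48, at least 715-fold higher. HAND1, a heart and trophoblast transcription factor, read 2.27 and 14.11, at least 552-fold higher, and PRL, the hormone prolactin, read 2.13 and 13.38, at least 332-fold higher. TNFRSF17, the plasma cell receptor BCMA, was at least 344-fold higher in HH. Several of these genes are known from other tissues, yet both IL-32γ arrays gave the same picture: PRL read 2.13 and 13.34 there and HAND1 2.45 and 14.14.

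Among genes measured in both lines, the largest differences after BCL6 and ROBO1 on the MyLa side were LRRN3 (142-fold), SNX7 (138-fold), the pseudogene DUXAP10 (133-fold), LINC02693 (132-fold) and PTK2, the focal adhesion kinase (115-fold). The other probe sets of PTK2 gave 2.04 and 2.90, a smaller difference. PFKFB3, which makes the activator of phosphofructokinase, was 91.5-fold and GADD45A, a stress gene, 88.6-fold higher in MyLa. On the HH side after TNFRSF1B came RCN1 (115-fold), ZG16B (92.7-fold), LDLRAD3 (89.3-fold), PSD3 (89.2-fold) and MAN1A1 (87.5-fold). NDRG1, a gene of hypoxia and differentiation, read 7.14 and 13.39, 75.9-fold higher in HH, although the list of glycolysis and hypoxia genes had a median of 0.07 with 21 of 28 members within 2-fold. MEF2C, a factor of muscle and lymphoid cells, was 55.1-fold higher in HH.

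Large differences also lay next to each other along the chromosomes. A run was counted where at least 4 neighbouring genes of the array all differed by 4-fold or more in the same direction. MyLa had 6 such runs with 28 genes and HH had 5 with 22 genes. The count went along all 19690 placed genes of the array, of which 11142 were measured, and a gene below 5 on both arrays ended a run. The shares past 4-fold, 9.68% in MyLa and 8.79% in HH, are of measured genes only, so they are no direct background for these runs. The longest was a run of 7 KIR genes on chromosome 19, from KIR2DL2 to KIR2DS1, higher in MyLa with differences of 3.61 to 7.87. On chromosome 7 TBXAS1, PARP12, KDM7A, KDM7A-DT and SLC37A3 were higher in MyLa, PARP12 by at least 531-fold. In HH the runs held the class II genes from HLA-DRA to HLA-DQB1 on chromosome 6, the metallothioneins from MT1F to MT1X on chromosome 16, and RASSF8-AS1, RASSF8, BHLHE41, SSPN and SSPN-AS1 on chromosome 12. The last 5 genes were all measured in HH only. SGMS2, CYP2U1, HADH and LEF1 on chromosome 4 were also higher in HH, with differences of −6.06 to −2.12. Some runs are families of like sequence, and others, such as that around RASSF8, hold genes of different families with their antisense transcripts.

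When genes below 5 on both control arrays were passed over, a choice made after seeing the data, the runs numbered 17 in MyLa and 7 in HH. They then took in CXCL8, PF4, PPBP and CXCL3 on chromosome 4, with differences of 4.13 to 9.75, and ILDR1, CD86, CSTA and MIX23 on chromosome 3, both in MyLa. In HH they took in PTMS, LAG3, CD4 and CDCA3 on chromosome 12, with differences of −8.04 to −2.26. CD4 and its neighbour LAG3 thus differed in the same direction.

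Whole chromosomes differed too. Over genes measured on both control arrays the median of chromosome 15 was 0.87, and 251 of its 304 genes were above 0. In sliding windows of 60 genes along it the median stayed between 0.71 and 1.17, and on the IL-32γ arrays the chromosome's median was 0.92. Of the 360 measured genes of chromosome 15, 45.3% were higher in MyLa by 2-fold or more, against 19.1% of all genes. Chromosome 8 leaned to HH, with a median of −0.47 over 336 genes, of which 82 were above 0, and with −0.44 on the IL-32γ arrays. Its windows ran from −0.92 to −0.23. Chromosome 17 had a median of 0.34. Chromosome 19 changed sides, with −0.08 on the control arrays and 0.25 on the IL-32γ arrays. The shifts of chromosomes 15 and 8 thus ran along their whole length, and copy number was not measured.

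**Figure D5:**
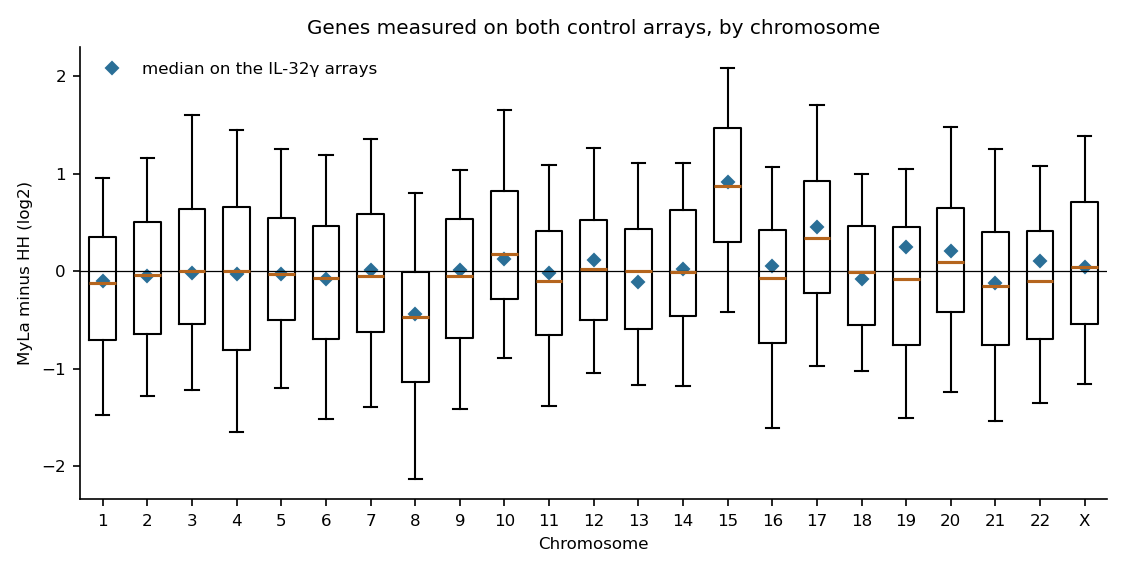
Boxes show MyLa minus HH (log2) of genes measured on both control arrays for each chromosome (x axis), with the quartiles, an orange median line and whiskers to the 10th and 90th percentile. Blue diamonds are medians on the IL-32γ arrays. Chromosome 15 lies above 0 and chromosome 8 below 0 on both pairs of arrays.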

How the data were processed

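RNA of 4 cultures, 1 array each, was measured on Affymetrix arrays of 54675 probe sets. The authors deposited log2 values per probe set, made with GCRMA per the submitters' processing notes. The log2 scale was inferred from their range, 2.13 to 16.00. For the GCRMA version and any joint normalisation, nothing was given in the sources used here. The number of arrays limits the precision.

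Probe sets with 1 gene symbol numbered 41097, those with several symbols 1801 and those with none listed 11777; only the first were named. Symbols were updated through Entrez IDs with the RefSeq gene table of GRCh38.p14, in which 41043 matched. Each gene was taken by its probe set of highest mean over the 4 arrays. Differences, counts, medians and runs were computed in Python 3.11.15 with pandas 2.3.3 and numpy 2.4.6, drawn with matplotlib 3.10.9, and checked on simulated data. No test was run.

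Genes were drawn, per direction, from the 15 largest differences and 15 largest bounds, in each list the 4 members furthest from 0, the T cell receptor and marker genes, and genes in runs; not all of these are named. Other genes are named after their values were seen, such as the housekeeping members of a list. Members and the 34 function lists were chosen with earlier results of these data known. Genes of the Y chromosome and XIST were left out.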

Additional observations from a re-analysis of the deposited data

Results flagged for a closer look

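For 3 genes the line difference had opposite signs on the control and the IL-32γ arrays, by 2-fold or more each way. This difference was not tested, as there was 1 array per group. PTP4A3, a phosphatase of the nuclear and plasma membrane, was −1.13 (MyLa minus HH, log2) on the control arrays and 1.40 on the IL-32γ arrays. RARA, the retinoic acid receptor alpha, was −1.40 and 1.28. UBALD1 was −1.04 and 1.21. They are 3 of the 2074 genes higher in HH on the control arrays.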

How the results depend on the processing

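The counts of genes higher in MyLa or in HH, and of genes measured in 1 line only, stayed within 1.5 times under a floor of 4 or 6, quantile normalisation, median centring, averaging over probe sets per gene, dropping probe sets ending in _x_at or _s_at, and the IL-32γ arrays. Without floor or filter, run for the first 2 counts, they were 2511 and 2344. At 4-fold they were 1082 and 982 by construction. Of the 382 named genes past 2-fold, 381 kept their sign on the IL-32γ arrays; the exception was CCL5, at 0.025. Leaving out _x_at and _s_at probe sets kept the sign of 360 and turned ERAP1 to 0.092 and IL1A to −0.64, and the rest were then below 5 on both control arrays; the cause was not tested. The 13 lists with a median past 2-fold kept its sign in every setting except no floor and no filter, where 5 did and genes near the bottom of the scale entered. No paired analysis was possible because each group was 1 array and the labels give no replicate numbers, and no array could be left out. GCRMA values near 2.13 have no order, so values below 5 give bounds only.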

Other observations

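A list of targets of the tumour suppressor p53 was written after CDKN1A and GADD45A had been seen among the large differences, so its counts are a description only. Of 30 genes, 22 were measured. The signal was higher in MyLa by 2-fold or more for 15 of them and in HH for 0, with a median difference of 1.51, against 19.1% and 18.6% of all measured genes. On the IL-32γ arrays the counts were again 15 and 0, with a median of 1.72. Besides CDKN1A, AEN, a nuclease of apoptosis, read 11.30 in MyLa and 6.20 in HH, 34.1-fold higher. SESN1, a stress gene that restrains mTOR signalling, read 11.08 and 7.17, 15.1-fold higher, and TP53I3 read 11.79 and 8.32, 11.1-fold higher. DDB2 and XPC, which recognise UV damage, were 3.38-fold and 3.03-fold higher in MyLa. MDM2, which degrades p53, was within 2-fold at 13.59 and 12.82, though its other probe sets ranged from 0.67 to 4.68.

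Single genes of other cell types stood out in each line. EBF1, the factor that sets B cell identity, read 12.86 in MyLa and 2.13 in HH, while the other 8 B cell markers with a probe set, PAX5, MS4A1, CD79A and CD79B among them, were below 5 in both. The log2 of the summed B cell markers was 12.87 in MyLa and 6.03 in HH. SYT1, a sensor of synaptic vesicles, read 2.13 in MyLa and 12.06 in HH, and SNAP25, its partner in vesicle fusion, 2.13 and 7.44. Of the other neuronal markers, TUBB3 was measured in both lines and GAP43 in MyLa only. Of the 9 neuronal markers 7 were below 5 in MyLa and 6 in HH. IGHM, the heavy chain of immunoglobulin M, read 2.69 and 13.28, and PEG10, an imprinted gene, 2.13 and 13.08. PTGS2, or cyclooxygenase 2, read 13.10 in MyLa and 2.13 in HH.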
